A study of Mus musculus with 8 samples.

Results

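Levels of 8 genes of cytosolic protein folding were examined in mature mouse oocytes. They are the chaperonin subunit genes Tcp1, Cct2, Cct4 and Cct5, the Hsp70 gene Hspa8, the Hsp40 gene Dnaja1, the Hsp90 gene Hsp90ab1 and the heat shock factor gene Hsf1. They were picked by name from a deposited table of 469 rows, which carry 417 gene names, and hold 11 of those rows. The tested libraries, labelled KO, are 4 samples of metaphase II (M2) oocytes from L/L cre females of about 6 months. The other 4 libraries, labelled Ctrl, are M2 oocytes of equally old L/L females, whose genotype is given as WT. Per the design text, the comparison concerns oocytes with raised reactive oxygen species in the mitochondrial matrix. Both groups share the L/L genotype, and they differ by cre, which marks the Cre recombinase. The labels name neither the gene targeted nor the promoter that drives Cre, and a check of the deleted gene was therefore not made. The libraries were made by Smart-seq2, which amplifies full-length cDNA from a few cells, and each was made from merged oocytes whose number is not stated. Nothing in the labels says whether the 4 libraries of a group came from different females, so a p-value here measures the spread between libraries, which may be technical.

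The chaperonin CCT, also called TRiC, is a barrel of related subunits in the cytosol that takes in newly made proteins, among them actin and tubulin, and lets them fold inside. Hspa8, the constitutive cytosolic Hsp70, binds exposed stretches of unfolded proteins in a cycle that J-domain proteins such as Dnaja1 start by stimulating its ATPase. Hsp90 proteins, of which Hsp90ab1 is the constitutive cytosolic one, receive partly folded clients such as kinases and steroid receptors from Hsp70. Hsf1 is the transcription factor that switches on many chaperone genes after heat or protein damage, and in mice the maternal protein is needed in oocytes and early embryos. Mature oocytes are transcriptionally silent, so their RNA levels reflect what was stored during growth and what was degraded since.

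In each of the 469 rows the group means were 2.04-fold or more apart, so the table is a list picked for its difference, and a call within it is not independent evidence of a change. Values are TPM, estimated transcript abundances scaled for length and library. Over the listed rows they summed to between 12869 and 19916 TPM in KO libraries, against 32000 to 42538 TPM in Ctrl libraries. Mitochondrial rows are a large part of these sums. For example, mt-Atp6 averaged 3175 TPM in KO and 7417 TPM in Ctrl libraries, and mt-Cytb 2554 and 5937 TPM. Among the 402 genes that averaged 1 TPM or more, 57.2% were called lower and 36.6% higher in KO oocytes (limma on log2(TPM + 1), adjusted p under 0.05). The groups did not overlap in 56.5% of genes, in 36.3% with KO below Ctrl and in 20.1% with KO above Ctrl. In such bulk samples less RNA of a gene per oocyte and a different make-up of the merged oocytes cannot be told apart. None of the 37 listed marker genes of oocytes, of cumulus and granulosa cells or of other ovarian cells has a row in the table, so the cell type label was not checked against those lists.

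Of the 8 genes, 6 were called lower in KO oocytes (Tcp1, Cct2, Cct5, Hspa8, Dnaja1 and Hsp90ab1) and 2 higher (Cct4 and Hsf1). In 5 of the 8 the 4 KO libraries and the 4 Ctrl libraries did not overlap. Against a background in which 93.8% of genes were called, these counts are no result about the chaperones as a group. After median-of-ratios scaling 3 genes were called lower, and after quantile normalization 4. The median difference of the 8 genes was -1.83 on the log2 scale, and that of all genes tested was -1.05. In the deposited TPM, the listed rows of 3 chaperonin subunits and of the Hsp70, Hsp40 and Hsp90 genes were thus lower in KO oocytes. Those of Cct4, another subunit, and of Hsf1, the factor that controls heat shock genes, were higher. The 8 genes have 11 rows against 77 annotated transcripts, so a listed row need not give the direction of its gene. In the same table, row 1 of Rpl22 stood at -1.43 and row 2 at 2.49 on the log2 scale. Without Ctrl replicates 2 and 4 together, a setting chosen after seeing the data, only the calls of Cct5 and Hsf1 remained, so 1 gene was called lower and 1 higher. The calls of the other 6 genes were lost there, with 2 Ctrl libraries left in the fit.

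**Figure D1:**
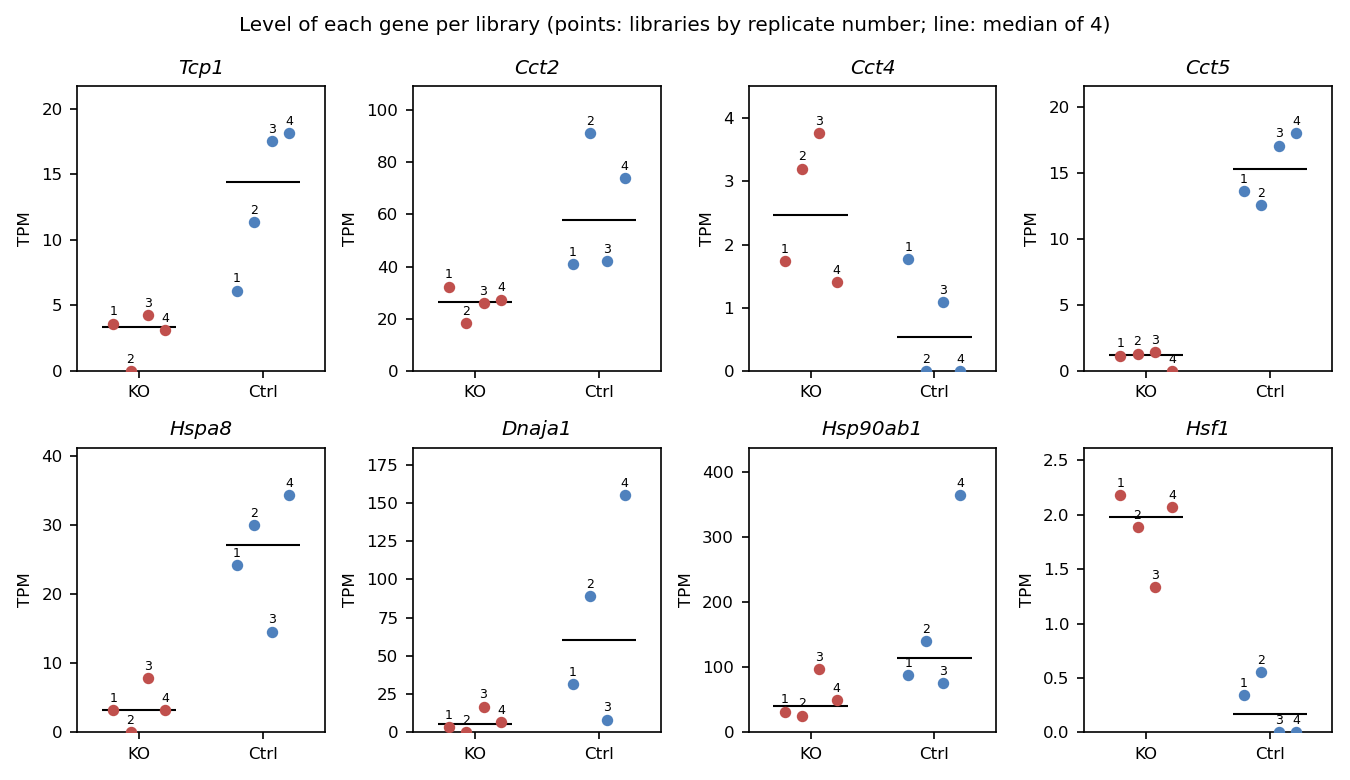
Level of each of the 8 genes (TPM, rows summed per gene, linear axis from 0 for each gene) in the 4 KO and the 4 Ctrl libraries, 1 point per library with its replicate number and a line at the group median. Tcp1, Cct2, Cct5 and Hspa8 lie lower in all KO libraries than in any Ctrl library, Hsf1 lies higher, and Cct4, Dnaja1 and Hsp90ab1 overlap.

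Promoter sequence was read for the members that the RefSeq table of mouse promoters holds, build GRCm38.p6, because Hsf1, itself among the members, binds repeats of a short element upstream of chaperone genes. Tcp1, Cct2, Cct5 and Dnaja1 matched, with 8 windows between them, and Cct4, Hspa8, Hsp90ab1 and Hsf1 did not. A paired unit of the heat shock element was searched as GAANNTTC or TTCNNGAA, each of which reads the same on both strands. For each gene the 150 bases before 1 annotated start are shown 5′ to 3′ on the gene's strand, with a paired unit in capitals. Where a gene has several windows, the window with a unit is shown. Dnaja1 is at chr4:40722318-40722467 on the plus strand, Cct2 at chr10:117063376-117063525 on the minus strand, Cct5 at chr15:31601847-31601996 on the minus strand and Tcp1 at chr17:12916179-12916328 on the plus strand.
Dnaja1: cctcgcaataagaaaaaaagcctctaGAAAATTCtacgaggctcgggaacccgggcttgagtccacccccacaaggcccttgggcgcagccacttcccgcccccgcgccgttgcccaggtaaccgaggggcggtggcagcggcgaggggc
Cct2: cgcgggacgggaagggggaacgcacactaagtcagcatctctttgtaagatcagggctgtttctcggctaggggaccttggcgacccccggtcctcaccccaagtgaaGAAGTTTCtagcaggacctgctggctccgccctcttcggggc
Cct5: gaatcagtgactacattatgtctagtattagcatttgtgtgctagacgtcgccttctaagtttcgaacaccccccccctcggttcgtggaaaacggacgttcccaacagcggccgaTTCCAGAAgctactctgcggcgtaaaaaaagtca
Tcp1: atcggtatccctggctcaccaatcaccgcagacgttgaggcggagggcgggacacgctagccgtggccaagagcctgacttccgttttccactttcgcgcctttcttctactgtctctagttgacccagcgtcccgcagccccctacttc
The unit GAAAATTC begins 124 bases before the start shown in Dnaja1, GAAGTTTC 42 bases before that shown in Cct2 and TTCCAGAA 34 bases before that shown in Cct5. These genes also have windows at other annotated starts, and those hold no unit. The windows shown for Dnaja1, Cct2 and Tcp1 lie within the gene spans given below. Tcp1 has neither motif in its window. The search ran over the whole window of the table, 300 bases long and reaching past the start. Either pair occurred in 3 of the 8 windows of the members and in 15.1% of 32851 such windows. A longer element of 3 units in a row, GAANNTTCNNGAA, was in 0 of the 8 windows and in 0.603% of all windows. A match describes the letters of the window and shows no binding.

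Cct5, which encodes the epsilon subunit of the chaperonin, was lower in KO oocytes by the largest margin among the subunits. It had 1.15, 1.32, 1.45 and 0 TPM in KO libraries 1 to 4, against 13.6, 12.6, 17.1 and 18.0 TPM in Ctrl libraries 1 to 4. All KO libraries were low and all Ctrl libraries were high, with a wide gap between them. The difference was -3.11 ± 0.47 on the log2(TPM + 1) scale (SE, n = 4 each, limma adjusted p = 0.000664), a scale that understates changes at low levels. This call held in all 18 alternatives tried, with a highest adjusted p of 0.0151 by limma. The KO mean of 0.977 TPM was under the level filter, so the gene passed it through the Ctrl libraries, and its repeated calls add little.

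The gene spans 31590800 to 31601804 on the minus strand of chromosome 15 (GRCm38, GENCODE M21). It has 5 annotated transcripts and 2 rows in the table, which carry no transcript identifiers. Taken apart, 9 of the 11 rows of the 8 genes were called lower and 2 higher, beside 57.8% and 36.9% of all 450 rows tested and 94.7% in either direction. The groups did not overlap in 7 of the 11, beside 56.9% of all rows, 35.8% with KO below Ctrl and 21.1% with KO above Ctrl. No stretch of 31 bases of its longest coding transcript occurs in another annotated gene. Row 1 held most of the RNA in Ctrl oocytes and little of it in KO oocytes. It had 1.15, 0, 0.0578 and 0 TPM in KO libraries, against 11.4, 9.45, 14.9 and 15.2 TPM in Ctrl libraries, a difference of -3.46 ± 0.45 on the log2 scale (SE, adjusted p by limma = 0.000246 over 450 rows). Row 2 had 0, 1.32, 1.39 and 0 TPM in KO libraries, against 2.19, 3.13, 2.19 and 2.76 TPM in Ctrl libraries. Its difference of -1.21 ± 0.41 on the log2 scale (SE, adjusted p by limma = 0.0211) was no longer past the threshold under median-of-ratios scaling, nor without KO replicate 4 (adjusted p = 0.0622) or Ctrl replicate 2 (adjusted p = 0.0522). Row 1 made up 75.1% to 87.2% of the gene's TPM in each Ctrl library. In KO libraries its share was 100% in replicate 1, 0% in replicate 2 and 4.0% in replicate 3, and replicate 4 has both rows listed at 0. A value of 0 may mark a failed estimate, so the split between rows is uncertain where the gene is low.

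**Figure D2:**
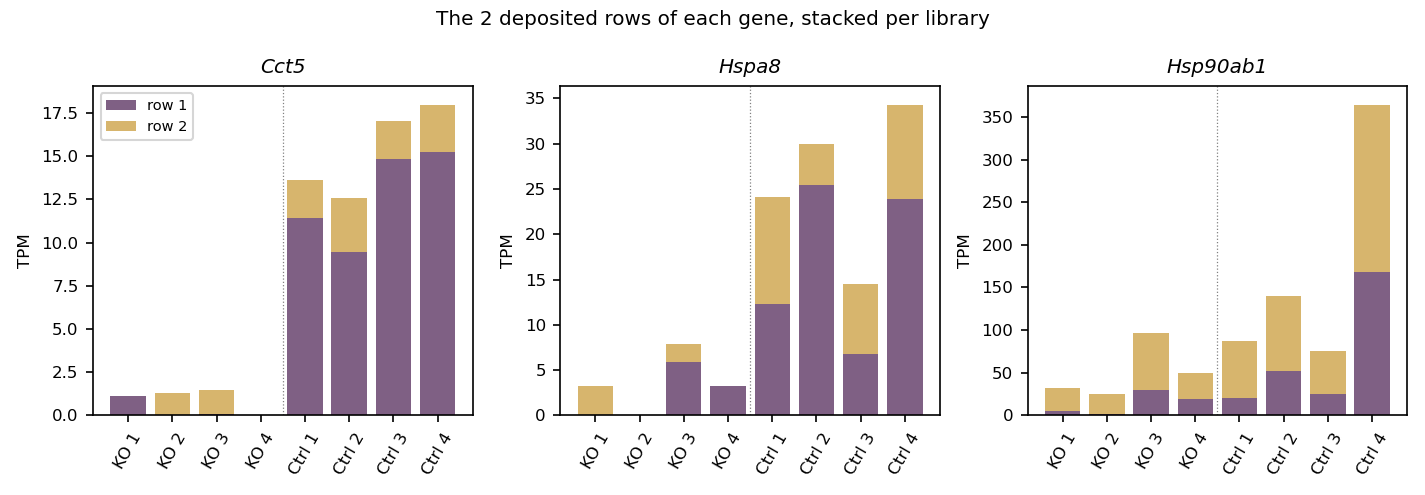
TPM of both rows of Cct5, Hspa8 and Hsp90ab1, stacked, in the 4 KO libraries and the 4 Ctrl libraries, with KO to the left. Row 1 of Cct5 was between 9.45 and 15.2 TPM in Ctrl libraries and at most 1.15 TPM in KO libraries, and both rows of Hsp90ab1 peaked in Ctrl replicate 4.

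Tcp1 encodes the alpha subunit. It had 3.62, 0, 4.24 and 3.11 TPM in KO libraries 1 to 4, against 6.12, 11.3, 17.6 and 18.1 TPM in Ctrl libraries 1 to 4. Every KO library was below every Ctrl library, with KO replicate 3 and Ctrl replicate 1 closest. The difference of -2.07 ± 0.58 on the log2 scale (SE, n = 4 each, limma adjusted p = 0.0137) missed the threshold under median-of-ratios scaling, at an adjusted p of 0.0614. The gene lies at 12915701 to 12925067 on the plus strand of chromosome 17. It overlaps Mrpl18 and Acat3 on the other strand, and 22.5% of the 31-base stretches of its longest coding transcript, counted on either strand, are also in Acat3. Whether the counting used strand is not given in the sources used here, so some of the Tcp1 level may come from those neighbours.

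Cct2, the beta subunit, was the most abundant of the 4 by listed rows. It had 32.3, 18.2, 26.0 and 27.2 TPM in KO libraries, against 40.9, 91.0, 42.1 and 73.8 TPM in Ctrl libraries. The groups did not overlap, and Ctrl replicates 2 and 4 stood well above Ctrl replicates 1 and 3. Means were 25.9 ± 5.82 TPM in KO oocytes and 62.0 ± 24.6 TPM in Ctrl oocytes (SD, n = 4 each), a 2.39-fold difference. On the log2 scale it was -1.17 ± 0.38 (SE, adjusted p by limma = 0.0178). It did not pass with median-of-ratios scaling (adjusted p = 0.163), quantile normalization (0.0585) and without Ctrl replicate 2 (0.0532). Cct2 lies at 117051001 to 117063814 on the minus strand of chromosome 10 and shares 0.104% of its 31-base stretches with another gene.

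Cct4, the delta subunit, went the other way at very low levels. It had 1.74, 3.21, 3.76 and 1.41 TPM in KO libraries, against 1.77, 2.17e-08, 1.09 and 0 TPM in Ctrl libraries. The groups overlapped, as KO replicates 1 and 4 were both below Ctrl replicate 1, and the level filter was passed through the KO libraries. The difference was 1.13 ± 0.44 on the log2 scale (SE, adjusted p by limma = 0.0293). With array weights the adjusted p was 0.141, and leaving out KO replicate 2, KO replicate 3, Ctrl replicate 2 or Ctrl replicate 4 in turn gave 0.0626, 0.0638, 0.0993 and 0.0898. Cct4 lies at 22990519 to 23003780 on the plus strand of chromosome 11, and it has 1 row in the table and 9 annotated transcripts. Of its 31-base stretches, 3.5% also occur in Gm15495.

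Within a library, ratios between subunits do not depend on a scaling factor common to the library, and they are given here as descriptions without a test. All rows were picked for a difference between the groups, so a gap in a ratio or share is no independent evidence. The 4 subunits together had 38.8, 22.7, 35.4 and 31.8 TPM in KO libraries, against 62.4, 114.9, 77.8 and 110.0 TPM in Ctrl libraries. These sums cover listed rows only, 11 for the 8 genes against 77 annotated transcripts, so they do not give the full RNA of a subunit. Cct2 made up 83.2%, 80.1%, 73.3% and 85.8% of the sum in KO libraries, against 65.6%, 79.2%, 54.1% and 67.2% in Ctrl libraries, so the groups overlapped. The share of Cct5 was 2.95%, 5.79%, 4.08% and 0% in KO libraries, against 21.8%, 11.0%, 21.9% and 16.4% in Ctrl libraries. All KO shares of Cct5 were below all Ctrl shares, and the difference between the mean shares, -14.6 percentage points, stayed between -16.8 and -13.2 when each library was left out in turn. Per library, Cct5 over Cct2 was 0.0355, 0.0723, 0.0557 and 0 in KO libraries, against 0.333, 0.138, 0.405 and 0.244 in Ctrl libraries, so less Cct5 was present relative to Cct2 in every KO library. The share of Cct4 was 4.48%, 14.1%, 10.6% and 4.43% in KO libraries, against 2.84%, 1.89e-08%, 1.40% and 0% in Ctrl libraries, which do not overlap. The level of Cct4 itself overlapped between the groups, and its share also rises where the other subunits are lower. The share of Tcp1 ran between 0% and 12.0% in KO libraries and between 9.80% and 22.6% in Ctrl libraries.

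**Figure D3:**
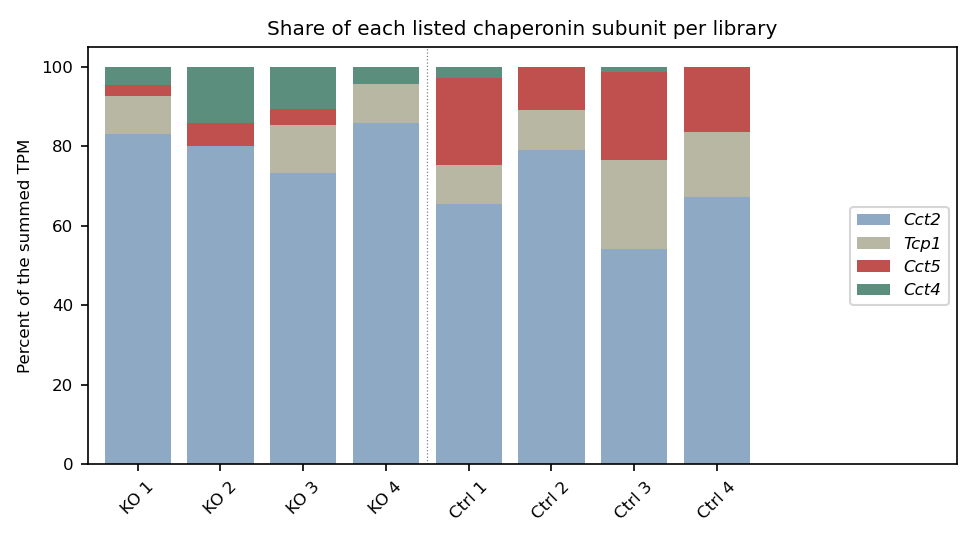
Share of each chaperonin subunit in the summed TPM of the 4 listed subunits (percent), as 1 stacked bar per library with the 4 KO libraries left of the 4 Ctrl libraries. Cct5 took 0% to 5.79% of the sum in KO libraries and 11.0% to 21.9% in Ctrl libraries, and Cct2 was the largest part in all 8.

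Set against Tcp1, Cct5 stood at 0.316, 0.341 and 0 in KO libraries 1, 3 and 4, against 2.22, 1.11, 0.972 and 0.992 in Ctrl libraries 1 to 4. The groups did not overlap in the ratios that could be formed. In KO replicate 2, which has no ratio, Cct5 at 1.32 TPM was above Tcp1 at 0. Cct4 over Tcp1 was 0.480, 0.887 and 0.452 in the same KO libraries, against 0.290, 1.9e-09, 0.0621 and 0 in Ctrl libraries, again without overlap. The levels of Cct4 alone overlapped, and this ratio also reflects the lower Tcp1 of KO libraries. Cct2 over Tcp1 was 8.92, 6.12 and 8.76 in KO libraries, against 6.69, 8.02, 2.40 and 4.07 in Ctrl libraries. The groups overlapped in that ratio, as Ctrl replicates 1 and 2 exceeded KO replicate 3.

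Hspa8, the constitutive Hsp70, was lower in KO oocytes without overlap. It had 3.21, 0, 7.86 and 3.26 TPM in KO libraries 1 to 4, against 24.2, 29.9, 14.5 and 34.3 TPM in Ctrl libraries 1 to 4. Ctrl replicate 3 was the lowest of its group and still above KO replicate 3, the highest of its own. The difference was -2.85 ± 0.59 on the log2 scale (SE, n = 4 each, limma adjusted p = 0.0041), and with both Ctrl replicate 2 and replicate 4 left out it was -2.48 (limma adjusted p = 0.0662). Row 1 had 2.25e-06, 0, 5.90 and 3.26 TPM in KO libraries, against 12.3, 25.4, 6.82 and 23.9 TPM in Ctrl libraries. Row 2 had 3.21, 0, 1.96 and 2.22e-08 TPM in KO libraries, against 11.8, 4.53, 7.72 and 10.4 TPM in Ctrl libraries. Both rows were called lower, at -2.80 ± 0.67 and -2.29 ± 0.56 on the log2 scale (SE, adjusted p by limma = 0.00701 and 0.00807 over all rows). KO replicate 1 held the gene almost wholly in row 2 and KO replicate 4 almost wholly in row 1, whereas each Ctrl library held both rows, with row 1 at 46.9% to 84.9% of the gene. Hspa8 lies at 40800984 to 40810087 on the plus strand of chromosome 9. Of the 31-base stretches of its longest coding transcript, 79.7% occur in other annotated genes and 74.3% in Gm15459 alone, so its level is uncertain, as reads can be split among such copies.

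Dnaja1, the J-domain partner of Hspa8, varied widely between libraries of both groups. It had 3.46, 0.0101, 16.9 and 6.89 TPM in KO libraries, against 31.6, 89.2, 8.40 and 155.1 TPM in Ctrl libraries. KO replicate 3 was above Ctrl replicate 3, so the groups overlapped, and the mean of 71.1 ± 65.5 TPM in Ctrl oocytes rests mostly on replicates 2 and 4, against 6.81 ± 7.27 TPM in KO oocytes (SD, n = 4 each). The difference was -3.18 ± 0.86 on the log2 scale (SE, adjusted p by limma = 0.0120), and with both Ctrl replicate 2 and replicate 4 left out it was -1.80 (limma adjusted p = 0.164). Dnaja1 lies at 40722150 to 40737149 on the plus strand of chromosome 4 and overlaps Smu1 on the other strand. Other annotated genes hold 31.2% of its 31-base stretches.

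By listed rows, Hsp90ab1 was the most abundant of the 8 genes by median in both groups, though Cct2 was slightly above it in KO replicate 1. It had 31.7, 25.5, 97.0 and 49.4 TPM in KO libraries, against 87.5, 140.0, 75.3 and 364.6 TPM in Ctrl libraries. KO replicate 3 exceeded Ctrl replicates 1 and 3, and Ctrl replicate 4 stood far above the rest. Means were 50.9 ± 32.3 TPM in KO oocytes and 167 ± 135 TPM in Ctrl oocytes (SD, n = 4 each), a difference of -1.59 ± 0.51 on the log2 scale (SE, adjusted p by limma = 0.0178). It did not pass with median-of-ratios scaling (adjusted p = 0.117) and quantile normalization (0.0668), and stood at an adjusted p of 0.0499 without Ctrl replicate 4. Row 2 was the larger part of the gene in all 8 libraries, at 61.7% to 93.1% in KO libraries and 53.9% to 77.0% in Ctrl libraries. It had 26.3, 23.8, 67.4 and 30.5 TPM in KO libraries, against 67.3, 88.1, 50.6 and 196.5 TPM in Ctrl libraries, a difference of -1.35 ± 0.46 on the log2 scale (SE, adjusted p by limma = 0.0211). Row 1 had 5.46, 1.76, 29.6 and 19.0 TPM in KO libraries, against 20.2, 51.9, 24.7 and 168.1 TPM in Ctrl libraries, a difference of -2.20 ± 0.74 (SE, adjusted p by limma = 0.0210). Without Ctrl replicate 4 neither row passed, at adjusted p of 0.0582 for row 2 and 0.0671 for row 1 by limma, and row 1 also missed without KO replicate 2, at 0.058. The gene lies at 45567775 to 45573271 on the minus strand of chromosome 17, and 16.6% of its 31-base stretches occur in other genes.

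Dnaja1 over Hspa8 was 1.08, 2.15 and 2.11 in KO libraries 1, 3 and 4, against 1.31, 2.98, 0.578 and 4.52 in Ctrl libraries 1 to 4. The KO ratios lay within the Ctrl range, and the direction of the mean difference, -0.57, turned to 0.16 without Ctrl replicate 4. Hsp90ab1 over Hspa8 was 9.89, 12.3 and 15.2 in KO libraries, against 3.62, 4.68, 5.18 and 10.6 in Ctrl libraries. All but Ctrl replicate 4 were below the KO libraries in this ratio. The mean ratio was higher in KO oocytes by 6.44, and by 5.09 to 7.97 when each library was left out in turn.

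Hsf1 was higher in KO oocytes. It had 2.18, 1.89, 1.33 and 2.07 TPM in KO libraries 1 to 4, against 0.345, 0.556, 0 and 0 TPM in Ctrl libraries 1 to 4. The groups did not overlap, and all values were low, so the gene passed the level filter through the KO libraries alone. The difference was 1.24 ± 0.32 on the log2 scale (SE, n = 4 each, limma adjusted p = 0.00998). The call held in all 17 alternatives in which Hsf1 could be tested, with a highest adjusted p of 0.0475 by limma. With the filter of 5 TPM Hsf1 was not tested. As it passed the main filter only through the group where it was high, these repeated calls add little. The Hsp70, Hsp40 and Hsp90 genes listed had lower levels in the same comparison. Hsf1 lies at 76477422 to 76501913 on the plus strand of chromosome 15, has 16 annotated transcripts and 1 row, and shares 0.434% of its 31-base stretches with other genes.

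TPM are per length, so the summed levels of listed rows can be ordered between genes within a group, and the order depends on which transcripts have a row. By median level the order in KO oocytes was Hsp90ab1 (40.6 TPM), Cct2 (26.6), Dnaja1 (5.18), Tcp1 (3.37), Hspa8 (3.23), Cct4 (2.47), Hsf1 (1.98) and Cct5 (1.23). Among these neighbours the ranges of Cct2 and Dnaja1 alone did not overlap. Hsp90ab1 was above Cct2 in 3 of the 4 KO libraries, and Tcp1 was above Hspa8 in only 1. In Ctrl oocytes it was Hsp90ab1 (114 TPM), Dnaja1 (60.4), Cct2 (58.0), Hspa8 (27.1), Cct5 (15.3), Tcp1 (14.5), Cct4 (0.545) and Hsf1 (0.173). There the neighbours that did not overlap were Cct2 and Hspa8, and Tcp1 and Cct4. Dnaja1, placed above Cct2 by median, was above it in only 1 of the 4 Ctrl libraries. Cct5 stood last in KO oocytes, below Cct4 and Hsf1 by median, and above both in every Ctrl library.

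Because listed rows, in large part mitochondrial, summed lower in KO libraries, the differences were also read relative to all genes tested. The median difference over all 402 genes was -1.05 on the log2 scale in the deposited TPM, -0.35 after median-of-ratios scaling and -0.69 after quantile normalization. Of the genes called, 61.0% were lower in KO with the deposited values, 26.4% after median-of-ratios scaling and 39.2% after quantile normalization. No member changed direction under either scaling. The median difference is taken over genes picked for a group difference, so it is no reference of unchanged genes. Subtracting it also removes most of a shift common to all genes, so likeness between the scalings is largely built in. Relative to that median, Cct5 differed by -2.07, -2.15 and -2.23 under the 3 scalings in the same order, and Dnaja1 by -2.13, -2.25 and -1.88. Hspa8 was at -1.80, -1.94 and -1.90 and Tcp1 at -1.03, -1.19 and -1.17. Cct2 was close to the median gene, at -0.12, -0.03 and -0.06, and Hsp90ab1 was at -0.54, -0.44 and -0.39. A place near that median does not mean an unchanged level. Cct4 was above it by 2.17, 1.75 and 1.95, and Hsf1 by 2.29, 1.90 and 2.10. After median-of-ratios scaling, computed from the listed rows alone, Cct5, Hspa8 and Dnaja1 were the 3 members still called lower.

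**Figure D4:**
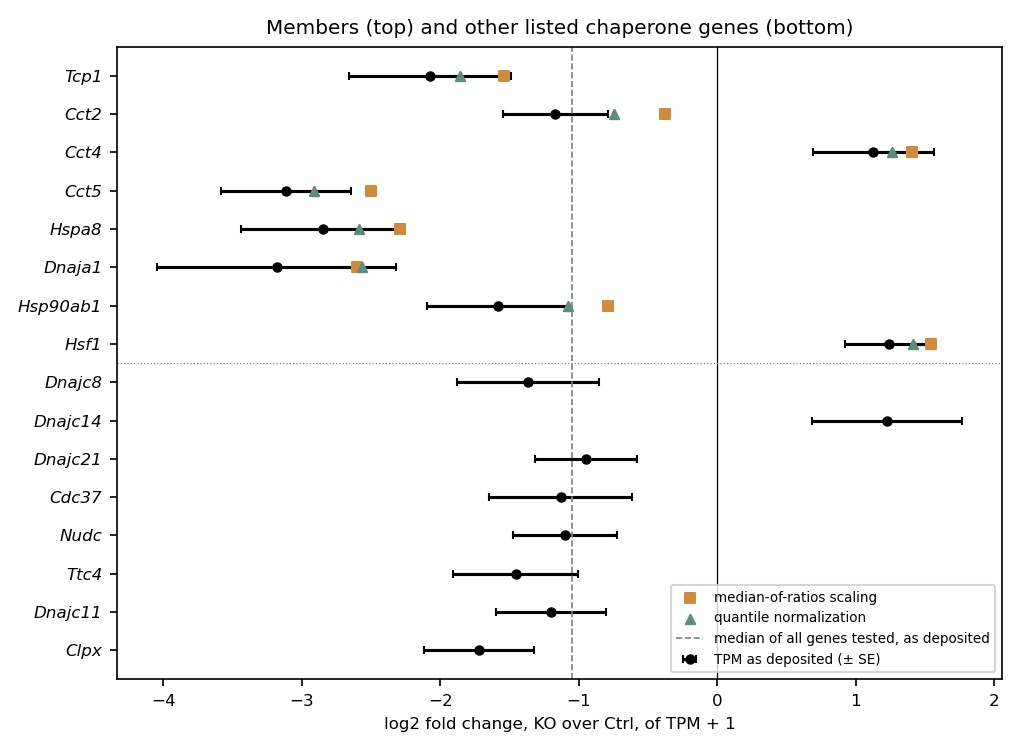
KO minus Ctrl difference on the log2(TPM + 1) scale for the 8 genes (top) and for 8 other listed chaperone and cofactor genes (bottom), with black points and standard errors for the deposited TPM, squares and triangles for the members under the other scalings, and a dashed line at the median of all genes tested in the deposited TPM. In the deposited TPM Cct2 lies near the line and Cct5, Dnaja1 and Hspa8 lie to its left, and Cct4 and Hsf1 lie above 0 under all 3 scalings.

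Lists of 108 other genes of cytosolic folding were looked up in the same table, and 7 have a row. The other CCT subunits, the prefoldins and phosducin-like cofactors, the actins and tubulins, the other Hsp70 and Hsp110 genes, the exchange factors with small heat shock proteins and the other heat shock factors have none, which is 70 genes in 6 lists. As the table holds only genes that differed by the margin above, their levels were not analysed here. Of the 6 that passed the level filter, 5 were called lower and 1 higher, and 3 did not overlap between the groups, beside the background shares given above. These calls were weak. Leaving out each library in turn left between 1 and 5 called lower and 0 or 1 called higher, and with median-of-ratios scaling 0 were called lower by limma (1 at an unadjusted p under 0.05). The lowest count came without Ctrl replicate 2.

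Among Hsp90 cofactors, Ttc4, a tetratricopeptide cochaperone, had 4.79 to 5.26 TPM in KO libraries and 8.06 to 25.2 TPM in Ctrl libraries. Its difference was -1.46 ± 0.45 on the log2 scale (SE, n = 4 each, limma adjusted p = 0.0160), and its groups did not overlap. Cdc37, which delivers kinases to Hsp90, had 1.83, 0.450, 2.70 and 2.91 TPM in KO libraries, against 4.10, 8.85, 2.51 and 6.71 TPM in Ctrl libraries. KO replicates 3 and 4 were above Ctrl replicate 3, and the limma adjusted p of 0.0470 for its difference of -1.13 ± 0.51 (SE) was past the threshold in 4 of 17 alternatives. Nudc, a cochaperone with a role in dynein function, had 31.8, 19.8, 25.0 and 39.2 TPM in KO libraries, against 42.5, 100.4, 62.3 and 53.3 TPM in Ctrl libraries (difference -1.10 ± 0.38, SE, limma adjusted p = 0.0208). Ahsa2, related to the Hsp90 activator Ahsa1, was below the level filter, with 0, 0, 0.0294 and 0 TPM in KO libraries, against 1.66, 0.872, 0.933 and 2.11 TPM in Ctrl libraries. Cdc37 was not called without any 1 of 7 libraries, Ctrl replicate 3 being the exception, and Nudc was not called without Ctrl replicate 2 (adjusted p = 0.0605).

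The J-domain genes with a row were split. Dnajc8, a splicing-related member, had 4.48, 4.53, 9.87 and 10.5 TPM in KO libraries, against 18.6, 22.5, 7.45 and 42.2 TPM in Ctrl libraries, with KO replicates 3 and 4 above Ctrl replicate 3. Dnajc21, which acts in ribosome assembly, had 28.4, 22.0, 31.6 and 34.7 TPM in KO libraries, against 46.1, 84.2, 36.2 and 72.1 TPM in Ctrl libraries, without overlap. Dnajc14 was higher in KO oocytes, at 4.27, 26.3, 21.6 and 8.99 TPM in KO libraries, against 6.40, 3.76, 3.28 and 6.23 TPM in Ctrl libraries, with KO replicate 1 inside the Ctrl range. The differences were -1.37 ± 0.51, -0.95 ± 0.37 and 1.23 ± 0.54 on the log2 scale for Dnajc8, Dnajc21 and Dnajc14 (SE, adjusted p by limma = 0.0266, 0.0292 and 0.0422). Dnajc8 was not called without KO replicate 1 or 2 or Ctrl replicate 2 or 4, Dnajc21 not without any 1 of those or KO replicate 3, and Dnajc14 not without KO replicate 2, 3 or 4 or Ctrl replicate 2, 3 or 4.

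In other compartments, 0 of 17 chaperone genes of the endoplasmic reticulum and 2 of 15 mitochondrial ones have a row. Clpx, the ATPase of a matrix protease, had 0, 0, 0.109 and 9.77e-09 TPM in KO libraries, against 1.14, 5.11, 0.961 and 4.11 TPM in Ctrl libraries. Its difference was -1.72 ± 0.40 in log2 units (SE, adjusted p by limma = 0.00648), and it was called lower in 17 of 17 alternatives. Clpx passed the level filter through the Ctrl libraries alone, so these calls add little, and with the filter of 5 TPM it was not tested. Dnajc11, a mitochondrial J-domain protein, had 23.9 to 28.3 TPM in KO libraries and 38.2 to 117 TPM in Ctrl libraries (difference -1.20 ± 0.40, SE, limma adjusted p = 0.0189). Neither gene overlapped between the groups, and Dnajc11 was not called under median-of-ratios scaling nor with both Ctrl replicate 2 and replicate 4 left out.

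With the group means taken out, Hspa8, Dnaja1 and Hsp90ab1 varied together over the 8 libraries, Tcp1 and Cct2 partly went with them, and Cct5 did not. Pearson's r of the deviations of log2(TPM + 1) was 0.90 for Hspa8 with Dnaja1, 0.89 for Dnaja1 with Hsp90ab1 and 0.73 for Hspa8 with Hsp90ab1, with Spearman's rho of 1.0, 0.93 and 0.93. Hspa8, Dnaja1 and Hsp90ab1 were lowest for their group in KO replicate 2 and Ctrl replicate 3, and highest in KO replicate 3 and Ctrl replicate 4. For Dnaja1 those deviations were -2.31 and 1.83 in the KO libraries and -2.28 and 1.78 in the Ctrl libraries. The points share libraries, and everything that sets a library's levels is part of the correlation. Tcp1 and Cct2 had r between 0.545 and 0.746 with these 3 genes, the highest being Tcp1 with Hspa8. With each other they had r of 0.52 and rho of 0.31. Over all candidate genes the median r was already 0.43 for Cct2 and Dnaja1, 0.40 for Hsp90ab1, 0.26 for Hspa8 and 0.24 for Tcp1. Cct5 did not go with them, with r between -0.18 and 0.36 to the 6 other members besides Hsf1 and -0.53 to Hsf1. At 1.445 TPM or less in KO libraries, Cct5 had little room to vary there on this scale. Cct2 and Cct4 ran opposite to each other, at r = -0.86. Cct4 was at 2.17e-08 and 0 TPM in Ctrl replicates 2 and 4, where Cct2 was highest, so that r leans on values at the floor. The median r of Cct4 over all candidates was -0.32.

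**Figure D5:**
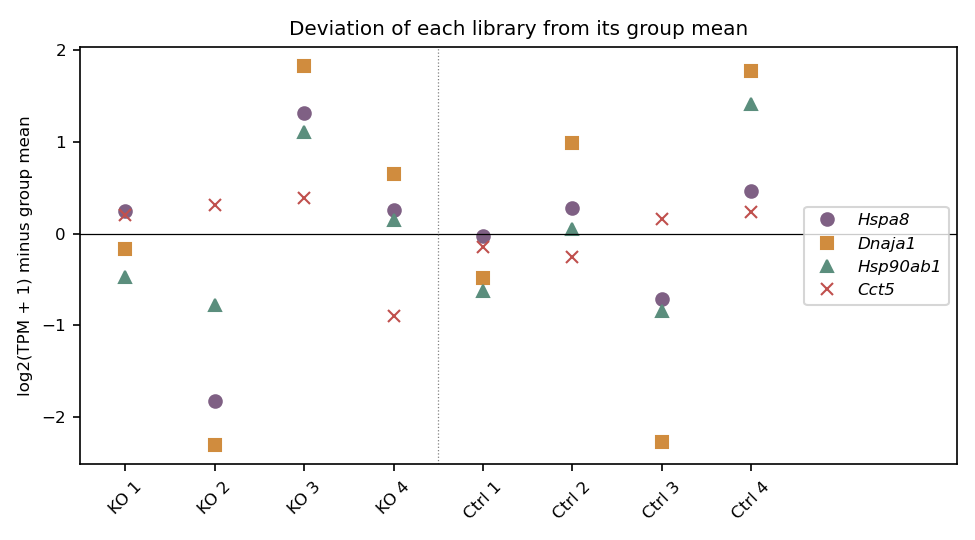
Deviation of Hspa8, Dnaja1, Hsp90ab1 and Cct5 from their own group means on the log2(TPM + 1) scale, 1 marker per gene, in the 4 KO libraries left of the 4 Ctrl libraries. Hspa8, Dnaja1 and Hsp90ab1 lie lowest in KO replicate 2 and Ctrl replicate 3, and highest in KO replicate 3 and Ctrl replicate 4, while Cct5 stays between -0.90 and 0.39 in all 8.

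The genes most like each member in this within-group pattern were taken as the 2 with the highest r over the 8 libraries, among listed genes that averaged 5 TPM or more. They were mt-Atp6 and mt-Nd2 for Tcp1 (both r = 0.93), Cnot6l and Pik3c2a for Cct2 (0.98 and 0.95), Rpn1 and Sgms1 for Cct4 (0.93 and 0.89) and Dap3 and Rnf214 for Cct5 (0.87 and 0.73). For Hspa8 they were Zwilch and Appl1 (both 0.95), for Dnaja1 Sars and Ddx11 (0.97 and 0.94), for Hsp90ab1 Sf3b2 and Glyr1 (0.98 and 0.97), and for Hsf1 Uqcrq and 2700062C07Rik (0.91 and 0.80). The median r of all candidates was 0.43 for Cct2 and Dnaja1, 0.40 for Hsp90ab1, 0.26 for Hspa8, 0.24 for Tcp1, -0.0067 for Cct5, -0.06 for Hsf1 and -0.32 for Cct4. High values for a few genes among that many candidates over 8 libraries are a description only.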

How the data were processed

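RNA was measured in 8 Smart-seq2 libraries of merged M2 oocytes, 4 KO and 4 Ctrl, grouped by their titles. The deposited values are TPM, estimated per transcript and per length. The submitters' processing notes name kallisto 0.46.2, sleuth 0.30.1 and build GRCm38. The sources used here do not give the annotation release, further normalization or the rule that picked the rows. TPM keep no depth, so sequencing depth is unknown, and count tools were not run.

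Rows were summed per gene name, and features averaging 1 TPM or more across libraries went into limma 3.58.1 (R 4.3.3) as log2(TPM + 1), with lmFit and a two-sided eBayes test with trend. Benjamini-Hochberg adjustment ran over all 402 genes, or over all 450 rows, with a threshold of 0.05. That step was checked on simulated data with independent noise and no preselection of rows, so the check gives no error rate for the rows listed here. Python 3.11.15 with numpy 2.4.6, pandas 2.3.3, scipy 1.17.1 and matplotlib 3.10.9 did the rest. Ratios with a denominator under 0.001 TPM were left out.

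The members and lists were chosen with earlier results of these data known. Named genes are all members, each listed gene with a row, and the 2 genes most alike per member. Gene positions and shared 31-base stretches come from GENCODE M21, and promoters from RefSeq. Alternatives were other pseudocounts, filters, scalings, eBayes without trend, array weights, the replicate block and each library left out.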

Additional observations from a re-analysis of the deposited data

Results flagged for a closer look

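Among 50 sets of 4 values examined (member levels, rows, shares and ratios per group), 3 had 1 library far from the other 3, and chance flags about 1 in 20 such sets. Row 1 of Cct5 in KO oocytes had 1.15 TPM in replicate 1, against at most 0.0578 TPM in the other 3 KO libraries. Row 2 of Hsp90ab1 in KO oocytes had 67.4 TPM in replicate 3, against 23.8 to 30.5 TPM in the other 3, and replicate 3 was also the highest KO library for Hspa8 and Dnaja1. Cct5 over Tcp1 in Ctrl oocytes was 2.22 in replicate 1, where Tcp1 was lowest, against 0.972 to 1.11 in the other 3.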

How the results depend on the processing

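With deposited TPM, 6 member genes and 9 member rows were called lower in KO oocytes, and 2 genes and 2 rows higher. Median-of-ratios scaling left 3 genes and 4 rows lower. A mean of at least 5 TPM left 0 genes and 0 rows called higher, because Cct4 and Hsf1 fell below that filter and were not tested. Array weights left 1 gene and 1 row higher. Without Ctrl replicates 2 and 4 together, added after seeing the data, 1 gene and 2 rows were lower and 1 gene and 1 row higher. Leaving out each library in turn gave 5 to 6 genes and 7 to 9 rows lower, and 1 to 2 of each higher. Of the other cytosolic genes, 5 were called lower and 1 higher. Their alternatives were also added after seeing the data. Under median-of-ratios scaling, quantile normalization, array weights and without both Ctrl replicates, 0, 1, 2 and 0 were lower, and each 0 had 1 gene at an unadjusted limma p under 0.05. With a pseudocount of 0.1, array weights or without both Ctrl replicates, 0 were higher, with 1, 0 and 0 at an unadjusted p under 0.05. Leaving out single libraries gave 1 to 5 lower and 0 to 1 higher. The cause was not tested. Deviations of same-numbered KO and Ctrl libraries had r of -0.26, -0.20, -0.17 and 0.065. Differently numbered libraries had r between -0.38 and 0.33, so these values cannot show whether the numbers pair the samples. The labels state no pairing. With the replicate block, member counts stayed at 6 and 2 genes and 9 and 2 rows, and 2 other cytosolic genes were called lower and 0 higher (1 unadjusted). The limma adjusted p of Dnaja1 was 3.28e-06 there, against 0.0120 in the main fit. Its deviations in replicates 2 and 3 ran opposite, at -2.31 and 1.83 in KO and 0.99 and -2.28 in Ctrl. The blocked fit thus hardly rests on its own paired spread, and these counts cannot show that calls hold under pairing. Over single members, 125 of 142 alternative values for genes and 168 of 194 for rows stayed on their side of the threshold, the rest lost the call, and none changed direction. For the 8 other genes it was 92 of 142. Among the ratios, the KO minus Ctrl difference of Dnaja1 over Hspa8, -0.57, was 0.16 without Ctrl replicate 4 and as low as -1.16 when other libraries were left out. As ratios of the group means, the differences of Cct2 over Tcp1 and of Cct4 over Tcp1 were 4.79 and 0.87. Depth is unknown, and Tcp1, Cct4, Cct5, Hspa8 and Hsf1 have libraries at 0.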
